A study of Mus musculus with 12 samples.

Results

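The genes described here are 7 muscle genes that respond to mechanical load: the ankyrin-repeat genes Ankrd1, Ankrd2 and Ankrd23, the LIM-domain gene Csrp3, and the stretch- or activity-regulated genes Mustn1, Abra and Errfi1. They were found by symbol in the annotation of the array, and every probe of theirs with a detection p under 0.05 on 6 or more of the 12 arrays was kept. This gave 7 of 7 genes with 11 of their 11 probes, among 9034 named genes and 15570 probes that passed the same filter on an array of 45281 probes. Each of the 11 probes was detected on 12 of 12 arrays.

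Gastrocnemius muscle, the large muscle of the calf, came from 6 mice labelled heat tolerant (TOL) and 6 mice labelled heat intolerant (INT), with 1 Illumina MouseWG-6 v2 BeadChip array for each mouse. All 12 were male C57BL/6J mice of 10 to 12 weeks and 22 to 26 g that carried an implanted temperature transponder, had been through a heat test of at most 3 h in a chamber set to 39.5°C, and gave muscle on the day after it. The label was not a treatment: it was given from the body temperature of each mouse during that test, and unheated mice were not among the samples. The sample titles and source names gave the label, whereas the description field of all 12 samples reads heat intolerant and was not used.

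The muscle ankyrin repeat proteins sit on the elastic N2A part of titin, the molecular spring of the sarcomere, and are also found in the nucleus, where they bind transcription regulators. Csrp3, also called muscle LIM protein, is a Z-disc protein that also moves to the nucleus and is known as part of the stretch response of striated muscle. In skeletal muscle, several genes of this kind are known to rise after eccentric or resistance exercise, overload or denervation, and Ankrd2 and Csrp3 are known to be more abundant in slow-twitch than in fast-twitch muscle.

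Sequence upstream of the transcription start was taken from RefSeq (GRCm38.p6), which held 9 entries for 6 of the 7 genes: 2 entries each for Ankrd23, Csrp3 and Errfi1, and 1 each for Ankrd1, Ankrd2 and Mustn1. The 4 stretches shown belong to Ankrd1, to Ankrd2 and Csrp3, whose levels went together across the mice, and to Mustn1, whose levels fell into separated sets. Each is read 5′ to 3′ on the strand of its gene and ends at the first base before the annotated gene: Ankrd1 at chr19:36119845-36120094 on the minus strand, Ankrd2 at chr19:42035777-42035916 on the plus strand, Csrp3 at chr7:48848052-48848301 on the minus strand and Mustn1 at chr14:30879007-30879256 on the plus strand. Capitals mark matches on either strand to CATTCC (the MCAT element, bound by TEAD factors) and to GAANNTTC (the core of a heat shock element).
Ankrd1: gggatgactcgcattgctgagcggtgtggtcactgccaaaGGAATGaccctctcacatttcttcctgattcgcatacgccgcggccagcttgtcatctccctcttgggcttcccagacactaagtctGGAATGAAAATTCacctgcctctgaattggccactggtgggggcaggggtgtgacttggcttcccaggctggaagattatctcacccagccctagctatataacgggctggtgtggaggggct
Ankrd2: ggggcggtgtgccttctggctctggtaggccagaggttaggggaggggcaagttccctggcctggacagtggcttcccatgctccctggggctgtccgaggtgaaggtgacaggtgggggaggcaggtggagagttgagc
Csrp3: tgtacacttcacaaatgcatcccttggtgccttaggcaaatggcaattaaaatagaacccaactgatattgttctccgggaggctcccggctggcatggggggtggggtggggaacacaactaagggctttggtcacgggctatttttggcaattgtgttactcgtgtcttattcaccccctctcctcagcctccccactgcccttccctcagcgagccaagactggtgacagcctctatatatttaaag
Mustn1: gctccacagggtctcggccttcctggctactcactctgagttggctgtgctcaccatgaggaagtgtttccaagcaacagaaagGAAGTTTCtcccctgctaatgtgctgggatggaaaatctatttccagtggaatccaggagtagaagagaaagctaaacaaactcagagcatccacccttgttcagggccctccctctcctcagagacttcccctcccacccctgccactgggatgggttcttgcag

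In the 250 bases before the start, Ankrd1 had 2 matches to CATTCC, beginning at -210 and -123, and a match to GAANNTTC beginning at -118 that shares its first base with the end of the second CATTCC match. Mustn1 had 1 match to GAANNTTC, at -166, and the second entry of Csrp3, which is not shown, had 1 at -10. CATTCC was present in 3 of the 9 entries and in 12.6% of 32851 promoters of the same length, and GAANNTTC in 3 of the 9 entries and in 6.69% of the promoters. TGACGTCA (the cAMP response element) was found in 1 entry, of Errfi1, and in 1.55% of promoters, TATAAA (the TATA box) in 2 entries, of Ankrd2 and Errfi1, and in 12.4%, and TGANTCA (the AP-1 site) in 0 entries and 6.75%. The CArG box, bound by SRF, was found in 0 entries and 1.47% of promoters, and the MEF2 box in 0 entries and 2.92%. The Ankrd2 stretch shown holds 140 of the 250 bases, and the TATAAA match of Ankrd2, at -29, lies outside it. All these matches describe letters in a window and were not tested against the expression values.

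The 7 genes did not separate TOL from INT mice. By limma with Benjamini-Hochberg adjustment over the 15570 probes, 0 of the 11 probes had an adjusted p under 0.05, where 0.829% of all tested probes did (129, of which 6, or 0.0385%, were higher and 123, or 0.79%, lower in TOL mice). At the threshold of the study, 0.05 without adjustment, 0 of the 11 probes passed in the same limma fit, where 9.91% of all tested probes did. The TOL and INT values overlapped for 11 of the 11 probes, and 1.09% of all tested probes had groups that did not overlap (0.276% higher and 0.809% lower in TOL mice). With the brightest probe of each gene, Ankrd1, Ankrd23 and Errfi1 were higher on average in TOL mice and Ankrd2, Csrp3, Mustn1 and Abra lower, where 48.9% of all named genes were higher; with median scaling of the arrays in place of quantile normalization, Errfi1 was lower as well (-0.10). The median log2 difference, TOL minus INT, was -0.01 for the 7 genes, as against -0.003 for all named genes. Lower RNA per cell and fewer cells of a type cannot be told apart in such whole-muscle samples.

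**Figure D1:**
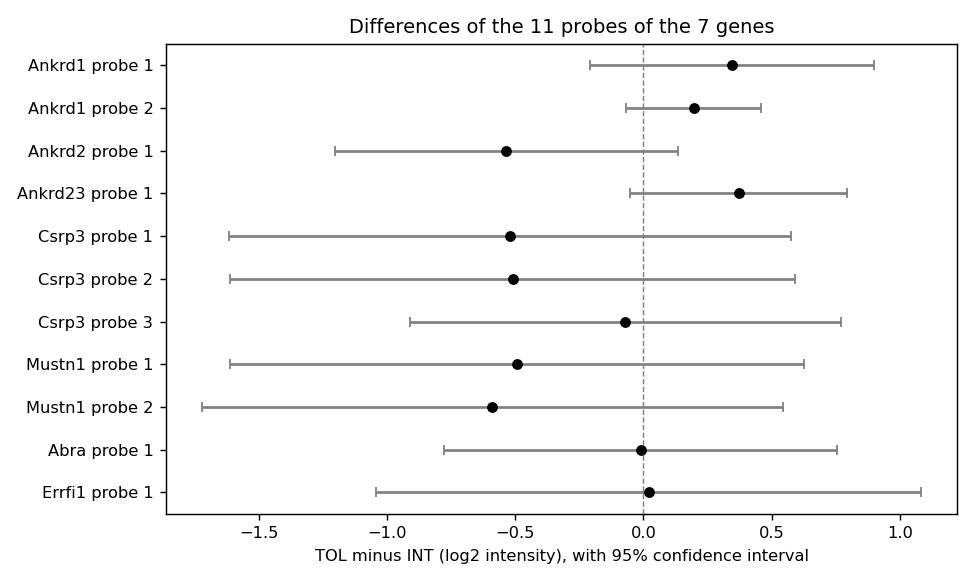
Difference TOL minus INT in log2 intensity (x axis) for each of the 11 probes of the 7 genes (y axis), as points with 95% confidence intervals from the limma fit, where probe 1 is the brightest of its gene. Each of the 11 intervals spans 0, and their lowest and highest ends are -1.72 and 1.08.

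The 7 genes varied widely from mouse to mouse. The standard deviation over the 12 mice was above the 95th percentile of all tested probes (0.375 on the log2 scale) for 7 of the 7 genes, where 5.07% of all named genes were above it. It was 1.16 for Mustn1, 1.14 for Csrp3, 1.07 for Errfi1, 0.77 for Abra, 0.72 for Ankrd2, 0.57 for Ankrd1 and 0.45 for Ankrd23, against a median of 0.173 over all tested probes. Between the lowest and the highest mouse, the normalized level differed 18.7-fold for Csrp3, 7.96-fold for Mustn1, 6.88-fold for Abra, 6.17-fold for Ankrd2, 5.78-fold for Errfi1, 4.46-fold for Ankrd1 and 2.60-fold for Ankrd23. Single mice carried part of this: without TOL mouse 5, Csrp3 differed 4.16-fold with a standard deviation of 0.67, below that of Abra (0.70), and without TOL mouse 11, Abra differed 3.93-fold and Ankrd1 2.25-fold. With any 1 mouse left out, 7 of the 7 genes were still above the 95th percentile of all tested probes over the remaining mice. The genes were chosen with earlier results of these data known, so these counts are a description and not a test. In mean level, the 7 genes lay between the percentiles 70.1 (Ankrd1) and 96.6 (Abra) of all tested probes. Their spread was not compared with that of probes of like brightness. The pooled spread within the 2 labels gave nearly the same values (1.18 for Mustn1, 1.16 for Csrp3 and 0.43 for Ankrd23), so that the spread lay within the labels.

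**Figure D2:**
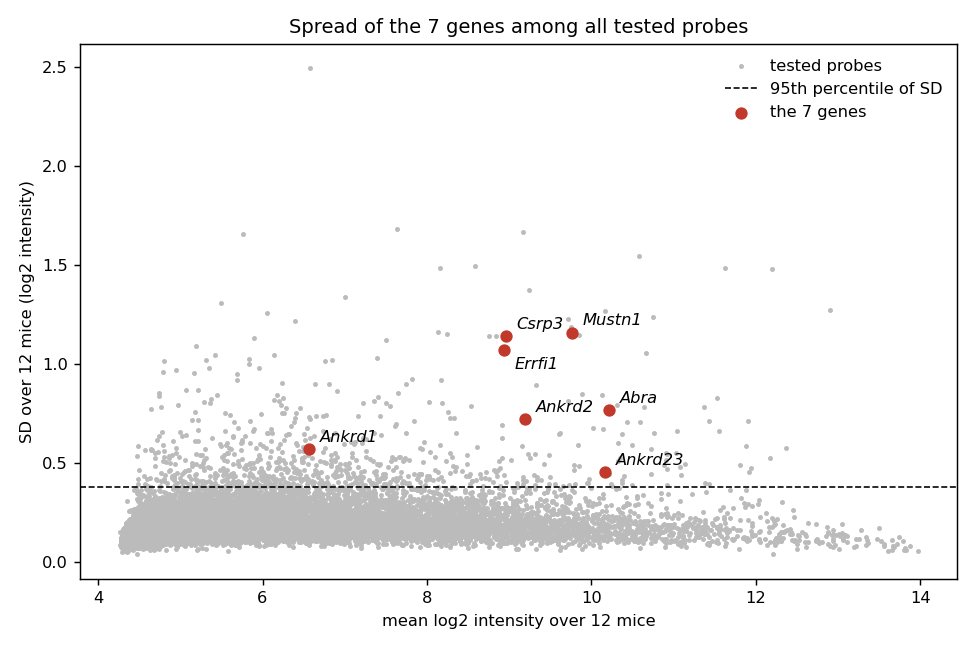
Standard deviation over the 12 mice (y axis, log2 intensity) against mean log2 intensity (x axis) for all 15570 tested probes (grey) and the brightest probe of each of the 7 genes (red), with the 95th percentile of the standard deviation (0.375) as a dashed line. The 7 red points lie above the line, from 0.45 for Ankrd23 to 1.16 for Mustn1.

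**Figure D3:**
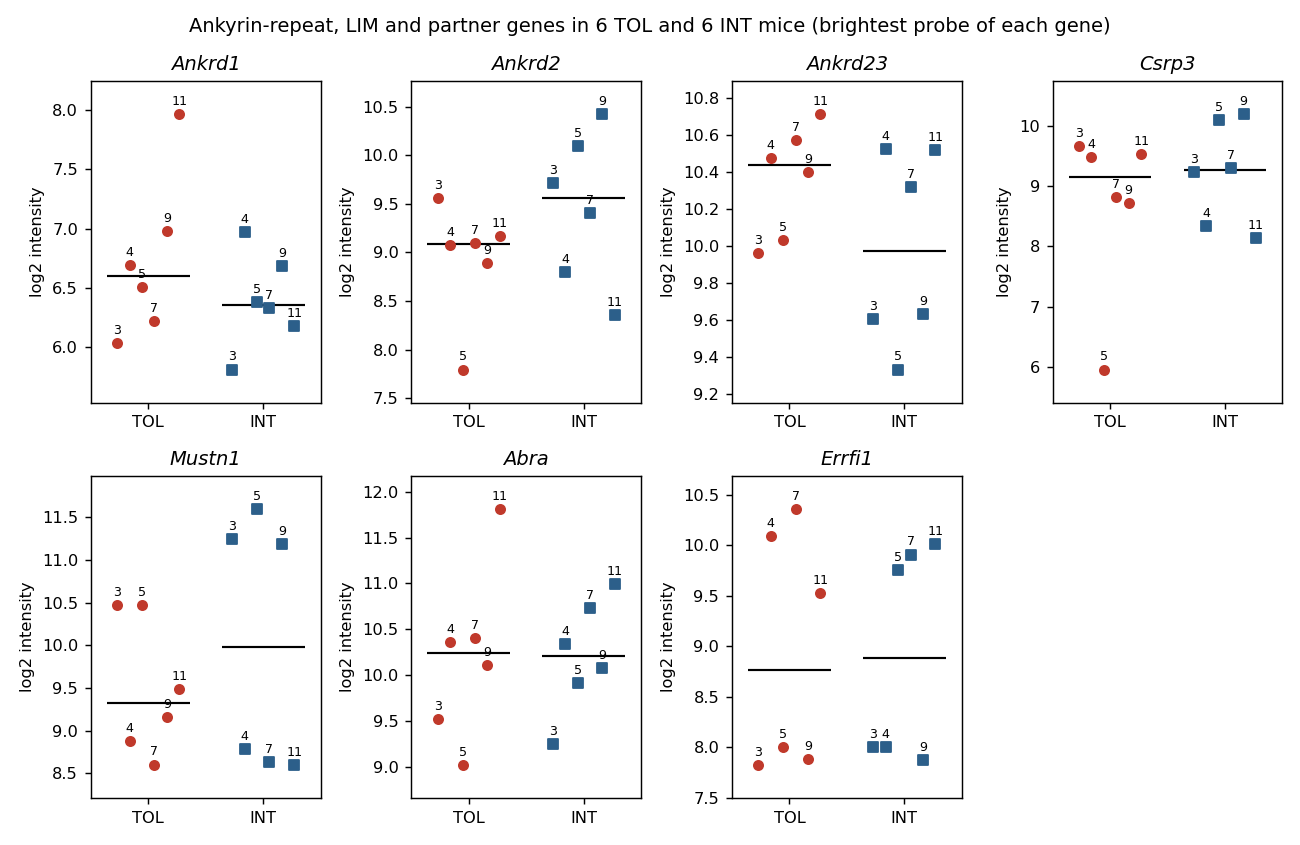
Normalized log2 intensity (y axis) of the brightest probe of each gene in the TOL mice (left, circles) and the INT mice (right, squares), with the mouse number beside each point and the group median as a line; each panel has its own y axis. The groups overlap in 7 of 7 panels, Csrp3 has 1 TOL mouse far below the others, and Mustn1 and Errfi1 fall into a high and a low set of mice.

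Ankrd1 (gene ID 107765, chromosome 19, 36111965 to 36119844 in GRCm38.p6) encodes cardiac ankyrin repeat protein, a titin partner of heart and loaded skeletal muscle. Its brightest probe, ILMN_2950286, had log2 intensities of 6.03 in TOL mouse 3, 6.69 in mouse 4, 6.51 in mouse 5, 6.22 in mouse 7, 6.98 in mouse 9 and 7.97 in mouse 11. The INT mice had 5.81, 6.97, 6.37, 6.33, 6.68 and 6.18 in mice 3, 4, 5, 7, 9 and 11. A single animal, TOL mouse 11, stood about 1 log2 unit above the others, and the remaining TOL values lay inside or just above the range of the INT mice. The mean was 6.73 ± 0.69 in TOL mice and 6.39 ± 0.40 in INT mice (SD, n = 6 each), a log2 difference of 0.34 with a standard error of 0.26 (95% interval -0.21 to 0.90; limma adjusted p = 0.724). The difference was 0.10 without TOL mouse 11 and 0.23 without INT mouse 3. The second probe, ILMN_2625451, was dimmer (4.79 ± 0.34 in TOL and 4.59 ± 0.08 in INT mice), was again highest in TOL mouse 11 at 5.33, and differed by 0.20 (adjusted p = 0.655).

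Ankrd2 (gene ID 56642, chromosome 19, 42035917 to 42045111) encodes Arpp, the ankyrin repeat protein of the skeletal muscle I-band and nucleus. Its probe, ILMN_2806065, read 9.56, 9.08, 7.80, 9.09, 8.89 and 9.17 in TOL mice 3, 4, 5, 7, 9 and 11. In INT mice of the same numbers it read 9.71, 8.80, 10.09, 9.41, 10.42 and 8.35. The lowest value of all belonged to TOL mouse 5 and the highest to INT mouse 9, and 5 of the 6 TOL mice lay below the INT mean. The mean was 8.93 ± 0.60 in TOL and 9.47 ± 0.78 in INT mice, a log2 difference of -0.53 with a standard error of 0.32 (95% interval -1.20 to 0.13; adjusted p = 0.626). It was -0.31 without TOL mouse 5 and -0.34 without INT mouse 9.

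Ankrd23 (gene ID 78321, chromosome 1, 36530193 to 36536556) encodes diabetes-related ankyrin repeat protein, the third member of the family. Its probe, ILMN_2741117, read 9.96, 10.47, 10.03, 10.57, 10.40 and 10.71 in TOL mice 3, 4, 5, 7, 9 and 11, against 9.61, 10.52, 9.33, 10.32, 9.63 and 10.52 in the INT mice. INT mice 3, 5 and 9 held the lowest 3 places and TOL mice 7 and 11 the highest 2, while the other 7 mice were mixed. It had the smallest p of the 7 genes: 10.36 ± 0.30 in TOL and 9.99 ± 0.52 in INT mice, a difference of 0.37 with a standard error of 0.20 (95% interval -0.05 to 0.79; limma p = 0.0822, adjusted p = 0.589; exact two-sided permutation p = 0.162). Without INT mouse 5 the difference was 0.24.

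Csrp3 (gene ID 13009, chromosome 7, 48830398 to 48848051) was measured by 3 probes, ILMN_2789650, ILMN_2742068 and ILMN_2789651. The brightest read 9.66, 9.49, 5.96, 8.82, 8.72 and 9.53 in TOL mice 3, 4, 5, 7, 9 and 11, and 9.23, 8.34, 10.10, 9.30, 10.19 and 8.13 in INT mice 3, 4, 5, 7, 9 and 11. TOL mouse 5 was far below each of the other 11 mice, of which INT mouse 11 was the next lowest, and INT mice 5 and 9 were the highest. The other 2 probes showed the same animal lowest, at 5.76 and 4.55, and the 3 probes followed one another across the mice with Spearman rho between 0.95 and 0.99. The means were 8.70 ± 1.40 in TOL and 9.22 ± 0.86 in INT mice, a difference of -0.52 with a standard error of 0.52 (95% interval -1.62 to 0.58; adjusted p = 0.802). The other 2 probes differed by -0.51 and -0.07 (adjusted p = 0.806 and 0.976). Without TOL mouse 5 the difference of the brightest probe was 0.03, and it was -0.34 without INT mouse 5 and -0.32 without INT mouse 9, so the sign of the Csrp3 mean rested on that mouse.

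Mustn1 (gene ID 66175, chromosome 14, 30879257 to 30881610) encodes a small nuclear protein of the musculoskeletal system that is known to be induced in muscle by exercise and in bone during fracture repair. Its brightest probe, ILMN_2658461, read 10.47, 8.88, 10.47, 8.60, 9.15 and 9.49 in TOL mice 3, 4, 5, 7, 9 and 11. In INT mice 3, 4, 5, 7, 9 and 11 it read 11.24, 8.78, 11.59, 8.63, 11.18 and 8.60. The 12 values fell into 2 sets with none between 9.49 and 10.47: a high set of TOL mice 3 and 5 and INT mice 3, 5 and 9, and a low set of the other 7. Both labels were thus in both sets, but each INT mouse of the high set was above each TOL mouse of that set. The sets largely followed the mouse number: each high mouse was numbered 3, 5 or 9. Mice 4, 7 and 11 of both labels were in the low set, together with TOL mouse 9. What lies behind this was not tested. The means were 9.51 ± 0.80 in TOL and 10.01 ± 1.47 in INT mice, a difference of -0.49 with a standard error of 0.53 (adjusted p = 0.816). With 1 mouse left out the difference was between -0.18 (without INT mouse 5) and -0.78 (without INT mouse 11), and it was -0.24 without INT mouse 3, -0.26 without INT mouse 9, -0.31 without TOL mouse 7 and -0.77 without INT mouse 7. The second probe, ILMN_2797928, gave -0.59 (adjusted p = 0.776), and the 2 probes followed each other with rho 0.94 over the mice. On the second probe the same 5 mice were highest, but the gap, 9.55 to 10.28, took 23.5% of the range, as against 32.8% on the brightest probe, and was under the share of 0.3 used here to call a gene separated.

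Abra (gene ID 223513, chromosome 15, 41865293 to 41869720) encodes STARS, an actin-binding protein that promotes transcription by SRF through the coactivator MRTF. Its probe, ILMN_2732401, read 9.52, 10.36, 9.02, 10.41, 10.12 and 11.81 in TOL mice 3, 4, 5, 7, 9 and 11, and 9.25, 10.34, 9.91, 10.73, 10.08 and 10.998 in INT mice 3, 4, 5, 7, 9 and 11. The highest mouse was TOL mouse 11 and the second INT mouse 11, and the lowest were TOL mouse 5, INT mouse 3 and TOL mouse 3. The group means were 10.21 ± 0.95 in TOL and 10.22 ± 0.62 in INT mice (difference -0.01, 95% interval -0.78 to 0.75, adjusted p = 0.996). As a ratio of TOL to INT mice, this interval runs from 0.584 to 1.69.

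Errfi1 (gene ID 74155, chromosome 4, 150853796 to 150868889) encodes Mig6, a feedback inhibitor of the EGF receptor family that is induced by growth factors, hormones and stress. Its probe, ILMN_2714031, read 7.83, 10.09, 8.0, 10.36, 7.88 and 9.53 in TOL mice 3, 4, 5, 7, 9 and 11, against 8.01, 8.0, 9.76, 9.91, 7.87 and 10.02 in INT mice 3, 4, 5, 7, 9 and 11. The values formed 2 clear sets of 6 mice, from 7.83 to 8.01 and from 9.53 to 10.36, and each set held 3 TOL and 3 INT mice. The gap between the sets took 60.2% of the whole range. The means were almost equal, 8.95 ± 1.18 in TOL and 8.93 ± 1.06 in INT mice (difference 0.02, 95% interval -1.04 to 1.08, adjusted p = 0.995).

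The animals of the high Errfi1 set can be followed in other stress genes. In TOL mice 4, 7 and 11, which were in that set, Hspa1a, the inducible Hsp70 chaperone, read 10.04, 8.88 and 12.41, and the other 3 TOL mice read 5.23, 4.68 and 5.29. In INT mice 5, 7 and 11, of the same Errfi1 set, Hspa1a read 5.29, 6.26 and 5.52, against 4.64, 4.98 and 5.74 in INT mice 3, 4 and 9. High Errfi1 thus came with high Hspa1a in the TOL mice, and with Hspa1a values that overlapped those of the low set in the INT mice. Dnajb1, the Hsp40 partner of Hsp70, read 10.73, 10.25 and 9.77 in TOL mice 4, 7 and 11, against 6.41, 6.49 and 6.31 in TOL mice 3, 5 and 9. In INT mice it read 6.74, 8.09 and 7.57 in mice 5, 7 and 11, against 6.27, 6.72 and 6.33 in mice 3, 4 and 9. Dnajb1 was thus higher in each mouse of the high Errfi1 set than in each mouse of the low set under both labels, with INT mice 5 and 4 nearly equal. The mean log2 level of 11 immediate early genes, which are transcribed within minutes of a stimulus, was 7.29, 7.26 and 5.75 in TOL mice 4, 7 and 11 and 6.34, 6.89 and 6.74 in INT mice 5, 7 and 11. In the low Errfi1 set it was 5.88, 5.34 and 5.61 in TOL mice 3, 5 and 9 and 5.57, 5.49 and 5.23 in INT mice 3, 4 and 9. TOL mouse 11 was the exception, with high Errfi1 and Hspa1a and an immediate early level inside the range of the low set. In the TOL mice, this split also followed the mouse number, with 4, 7 and 11 against 3, 5 and 9. In the INT mice it did so apart from mice 4 and 5, which had changed places. In the TOL mice, a link between these genes and a difference that goes with the mouse number cannot be told apart. The part of these genes in the Errfi1 level was not tested.

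**Figure D4:**
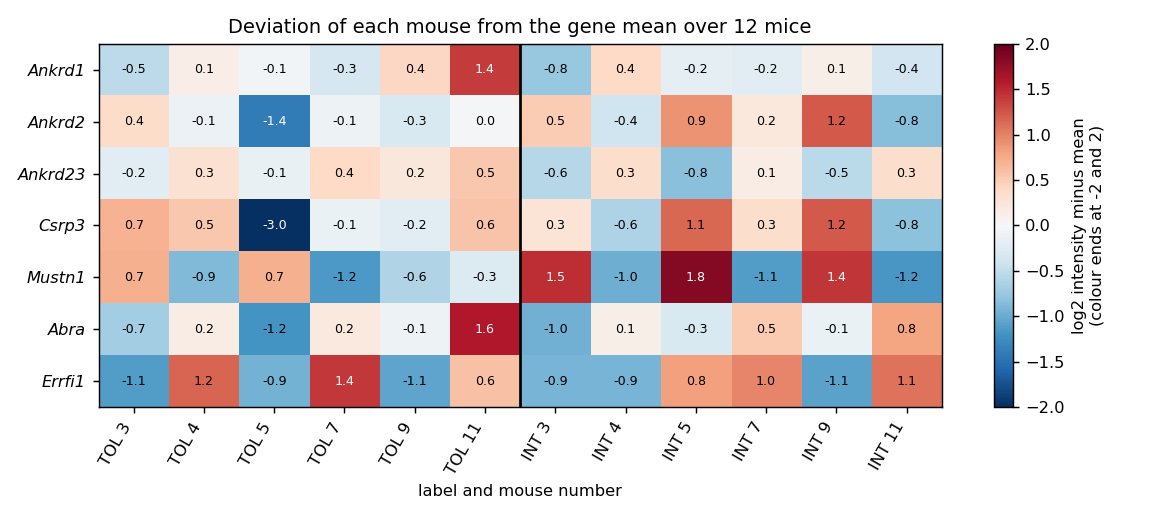
Deviation of each mouse (columns, TOL then INT, with mouse numbers) from the mean of each gene over the 12 mice (rows), in log2 intensity, with red above and blue below the mean and colours ending at -2 and 2. Ankrd2 and Csrp3 have alike rows, with TOL mouse 5 lowest in both, whereas the high mice of Mustn1 are blue in the rows of Ankrd23 and Abra.

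The spread within each label was compared as the mean absolute deviation from the median of the label. For Mustn1 it was 0.63 in TOL mice and 1.33 in INT mice (exact two-sided permutation test, p = 0.00216, the smallest that 924 arrangements can give), and for Ankrd23 0.23 in TOL mice and 0.46 in INT mice (exact permutation p = 0.0303). The other 5 genes had exact permutation p-values of 0.323 or more, with 0.0498 for Ankrd2 (smaller deviations in TOL mice) without TOL mouse 5. These p-values are unadjusted. By the same test 4.96% of all named genes had p of 0.05 or less (2.06% with the smaller spread in TOL mice), and after Benjamini-Hochberg adjustment over the 9034 named genes the permutation p was 0.337 for Mustn1 and 0.901 for Ankrd23, so that 0 of the 7 genes passed. Without any single INT mouse, the unadjusted p was between 0.426 and 0.468 for Mustn1 and between 0.331 and 0.426 for Ankrd23. The spread difference of Mustn1, TOL minus INT, was -0.70 with all mice and between -0.41 and -0.49 without any single INT mouse. For Ankrd23, p was also 0.0563 without TOL mouse 4, 0.0519 without TOL mouse 7 and 0.0866 without TOL mouse 9. With an odd number of mice the median is 1 of the values, which sets a deviation to 0. A rise in p without 1 mouse therefore cannot be put down to that mouse.

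Levels of Ankrd2 and Csrp3 went together across the 12 mice. Their Pearson r was 0.90 and their Spearman rho 0.89 (permutation p after Benjamini-Hochberg adjustment over 10 pairs, 0.0001 for r and 0.0033 for rho). Without TOL mouse 5 and INT mouse 9, the mice farthest from the median of Ankrd2, r was 0.87, and within the labels it was 0.97 in the 6 TOL mice and 0.98 in the 6 INT mice. The 2 genes were both lowest in TOL mouse 5 and both highest in INT mouse 9, with INT mouse 5 second in both. The second pair was Ankrd23 and Abra, with rho 0.78 (adjusted permutation p = 0.0217) and r 0.67 (adjusted permutation p = 0.0839). Its r was 0.68 without INT mice 3 and 5, 0.90 within the TOL mice and 0.77 within the INT mice. This pair did not pass without TOL mouse 9 (rho 0.75, adjusted permutation p = 0.0546) or without TOL mouse 11 (rho 0.71, adjusted permutation p = 0.0885). The differences, TOL minus INT, of same-numbered mice had r -0.45 for Ankrd23 and Abra, against r 0.97 for Ankrd2 and Csrp3.

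**Figure D5:**
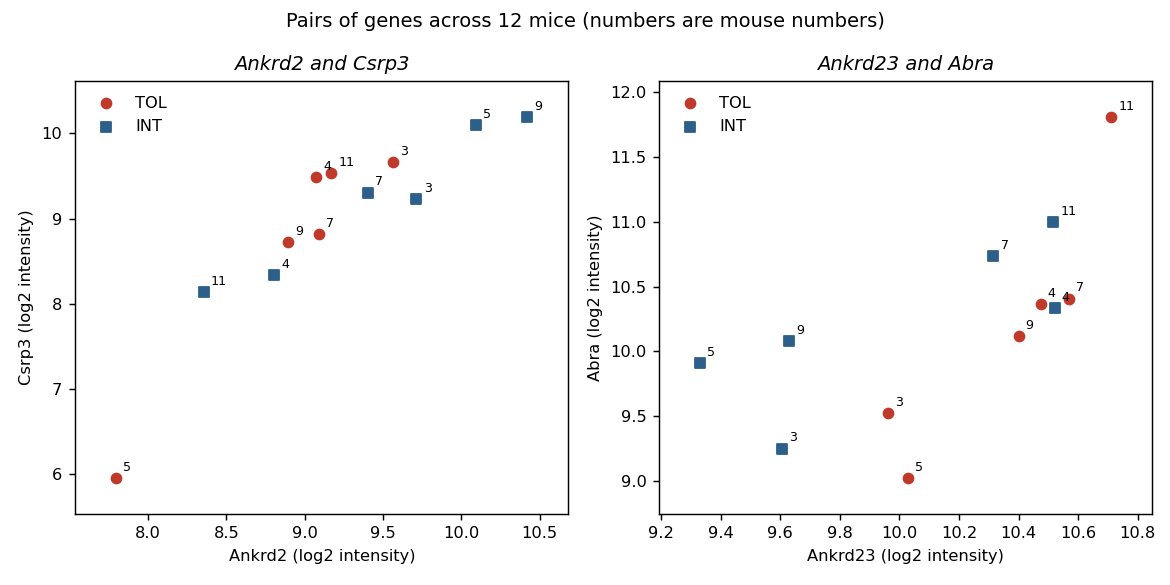
Left, Csrp3 (y axis) against Ankrd2 (x axis), and right, Abra (y axis) against Ankrd23 (x axis), in log2 intensity, with a circle for each TOL mouse and a square for each INT mouse and the mouse number beside it. The left pair has rho 0.89 and the right pair rho 0.78 over 12 mice.

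The remaining 8 of the 10 pairs had adjusted permutation p-values of 0.151 or more for rho. Of these 8, Ankrd2 and Ankrd23 had the strongest negative values, with r -0.60 and rho -0.59 (adjusted permutation p = 0.0969 for r and 0.151 for rho). Their r was 0.28 within the TOL mice but -0.88 within the INT mice. Without TOL mouse 5, their rho was -0.73 (adjusted permutation p = 0.0483). Ankrd1 and Abra had r 0.62 (adjusted permutation p = 0.0969) and rho 0.30, and r was -0.02 without TOL mouse 11 and INT mouse 3, so that this relation rested on those mice. No pooled correlation is given for Mustn1 and Errfi1, since their 12 values fell into separated sets. Within the TOL mice, Mustn1 had r -0.82 with Ankrd23 and -0.55 with Abra. Within the INT mice these were -0.98 and -0.83. With Ankrd2 and Csrp3 the r of Mustn1 was -0.30 and -0.42 in TOL mice but 0.85 and 0.80 in INT mice. Each label holds mice of both Mustn1 sets, and these values were not tested. By rank, the 5 mice with the highest Mustn1 (TOL mice 3 and 5 and INT mice 3, 5 and 9) were also the 5 mice with the lowest Ankrd23 and the 5 with the lowest Abra. This is given as an order of values, with no test.

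Outside the 7 genes, the named genes whose order of the 12 mice was most like that of each were listed among 9027 genes, as a description with no p. For Ankrd1 they were Vma21 (rho 0.90), Nudt6 (0.89) and Rbm4 (0.86), and for Ankrd2 Hectd2os (0.88), H4c11 (0.86) and H3c10 (0.84). For Csrp3 they were Sec24c (0.87), H4c1 (0.86) and Car14 (0.85). Histone genes have near-identical copies, so the identity of H4c11, H3c10 and H4c1 is uncertain. For Ankrd23 they were Ubxn8 (0.92), Aldh1l2 (0.91), a mitochondrial folate enzyme, and Atp10a (0.91), a phospholipid flippase. For Abra they were Atp8a1 (0.94), another flippase, Rxrg (0.92), a retinoid X receptor, and Smox (0.90), spermine oxidase. Smox read 10.18, 10.94, 9.53, 10.93, 11.002 and 12.10 in TOL mice 3, 4, 5, 7, 9 and 11, and 9.46, 10.97, 10.01, 11.10, 10.11 and 11.29 in INT mice 3, 4, 5, 7, 9 and 11, so that TOL mouse 11 was highest and INT mouse 11 second, as in Abra. For Mustn1 they were St6galnac4, Mrnip and Tjap1, with rho 0.96, 0.79 and 0.93 within the 7 mice of the low Mustn1 set. No rho is given for the 5 mice of its high set. As the genes were picked by rho over the same 12 mice, rho within a set is not independent of that choice. For Errfi1 they were the stress-induced kinase Plk3, the immediate early gene Arc and Nfkbiz, a nuclear ankyrin repeat protein of the NF-kB system. Their rho was 0.83, 0.89 and 0.89 within the 6 mice of the high Errfi1 set and 0.71, 0.66 and 0.77 within the 6 mice of the low set. Arc read 5.99, 5.46 and 4.56 in TOL mice 4, 7 and 11 and 4.36, 4.35 and 4.20 in TOL mice 3, 5 and 9. In INT mice it read 4.43, 4.80 and 4.98 in mice 5, 7 and 11 and 4.60, 4.36 and 4.16 in mice 3, 4 and 9, so that the 2 Errfi1 sets were apart in Arc among the TOL mice and overlapped among the INT mice. These 21 genes had adjusted p-values between 0.442 and 0.997 for TOL against INT. The lowest mean log2 intensities among them were 4.39 for Ubxn8, 4.53 for Vma21, 4.57 for Atp10a and 4.69 for Arc. Such levels lie near background, where the order of the mice is less certain.

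Titin and its Z-disc partners gave a list of 28 genes around the ankyrin-repeat and LIM proteins, of which 24 were tested. None passed the adjusted threshold (0 higher and 0 lower), 14 were higher and 10 lower on average in TOL mice, 3 passed the unadjusted threshold, and the median difference was 0.05. The 3 were Capn3, the calpain held by titin (5.58 in TOL and 5.20 in INT mice, difference 0.38, adjusted p = 0.304), Myot, a Z-disc actin crosslinker (9.09 in TOL and 8.63 in INT mice, difference 0.46, adjusted p = 0.451), and Myoz1 (0.17, adjusted p = 0.489). Trim54, a ubiquitin ligase, followed with 0.23. Of 24 other LIM-domain genes, 19 were tested, 6 higher and 13 lower (median -0.05), with 0 past the adjusted threshold and 2 past the unadjusted threshold. These were Pxn, the focal adhesion protein paxillin (difference 0.44, adjusted p = 0.158), and Fhl3 (-0.19, adjusted p = 0.383), and Lpp (-0.16) and Ldb3 (-0.15) followed. Of other genes whose symbol begins with Ankrd, 15 were tested, 6 higher and 9 lower (median -0.03), with 0 past the adjusted threshold and 4 past the unadjusted threshold. The 4 were Ankrd49 (-0.50, adjusted p = 0.165), Ankrd46 (0.22, adjusted p = 0.335), Ankrd13a (0.21) and Ankrd24 (0.21). Of all named genes, 8.41% passed the unadjusted threshold, and 0.0221% were higher and 0.52% lower in TOL mice at the adjusted one. The largest standard deviation over the mice among those 15 Ankrd genes was 0.385.

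The transcription pathways tied to these genes were described in the same way. The YAP and TEAD list, whose factors bind the MCAT element, had 20 of 28 genes tested, 5 higher and 15 lower in TOL mice (median -0.08), 0 past the adjusted threshold and 2 past the unadjusted threshold: Tgfb2 (0.35, adjusted p = 0.147) and Ptpn14 (-0.36, adjusted p = 0.288). Ccn2, a standard YAP target, differed by -0.49 (adjusted p = 0.512) and Sav1 by -0.26. The SRF and MRTF list, downstream of Abra, had 19 of 26 genes tested, 7 higher and 12 lower (median -0.02), 0 past the adjusted threshold and 2 past the unadjusted threshold: Actb (0.26, adjusted p = 0.155) and Acta2 (-0.43, adjusted p = 0.481). Flna (-0.21) and Rock1 (-0.13) followed. The ErbB and MAPK feedback list around Errfi1 had 8 of 20 genes tested, 6 higher and 2 lower (median 0.06), with 0 at either threshold; its leading genes were Hbegf (0.30), Grb2 (0.10), Dusp6 (-0.27) and Dusp1 (0.23). The NF-kB and p53 list had 9 of 12 genes tested, 3 higher and 6 lower (median -0.06), likewise with 0 at either threshold, and was led by Mdm2 (-0.20), Ybx1 (-0.14), Nfkbia (0.22) and Nfkbib (-0.10). Over all named genes, 0.0221% were higher and 0.52% lower in TOL mice at the adjusted threshold, and 8.41% passed the unadjusted one.

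Of 11 chaperone genes driven by HSF1, 8 were higher and 3 lower in TOL mice (median 0.18), 0 passed the adjusted threshold and 1, Hspa1a, passed the unadjusted threshold (difference 2.35, adjusted p = 0.457). Dnajb1 (1.37, adjusted p = 0.563), Hspa1b (0.87) and Hsp90aa1 (0.79) followed. The unadjusted threshold was passed by 8.41% of all named genes. Of 18 immediate early genes 11 were tested, 8 higher and 3 lower (median 0.13), with 0 past the adjusted threshold and 1, Jun (0.58, adjusted p = 0.487), past the unadjusted threshold, followed by Atf3 (0.61), Arc (0.26) and Ccn1 (0.21).

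Markers of slow-twitch fibres, in which Ankrd2 and Csrp3 are known to be abundant, were lower on average in TOL mice for 11 of 11 genes (median -0.64). Of these markers 7 passed the unadjusted threshold, where 8.41% of all named genes did, and 0 passed the adjusted threshold. They were led by Atp2a2 (-0.85, adjusted p = 0.401), Tnnc1 (-1.26, adjusted p = 0.405), Tnnt1 (-1.04) and Myh7 (-0.55). Myh7 was detected on 7 of the 12 arrays, with means of 4.38 in TOL and 4.94 in INT mice, and was highest in INT mouse 9 at 6.19. The mean log2 level of the list was 7.35 to 8.87 in TOL and 8.21 to 9.78 in INT mice. Across the 12 mice it had r 0.45 and rho 0.02 with Ankrd2 (adjusted permutation p over 5 relations, 0.633 and 0.956) and r 0.35 and rho -0.11 with Csrp3 (0.633 and 0.956). Without INT mouse 9 and TOL mouse 11, r was 0.24 for Ankrd2 and 0.43 for Csrp3. For Ankrd1, Ankrd23 and Abra, r was between -0.26 and -0.09 and rho between 0.03 and 0.15, with adjusted permutation p of 0.674 or more, and without those 2 mice r was 0.31, 0.48 and 0.67.

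The arrays themselves were alike: between 15179 and 17017 probes were detected on each, and the mean correlation of an array with the other 11 was 0.981 to 0.987, apart from 0.973 for TOL mouse 11. Skeletal muscle defining markers (7 of 8 tested) had mean log2 levels of 12.57 to 12.74 in TOL and 12.54 to 12.65 in INT mice, and 1 of 7 cardiac markers, Myh6, was detected often enough to be tested (-0.36, adjusted p = 0.614). Fast-twitch markers were 5 higher and 6 lower (led by Tnnt3, 0.22), and regenerating and denervated fibre markers 5 higher and 2 lower (led by Chrna1, 0.36). Among other cell types, fibroblast and tenocyte markers were 6 higher and 3 lower (Dcn, 0.26), macrophage markers 7 and 2 (Csf1r, 0.09), neutrophil markers 1 and 1 (S100a8, 0.19), adipocyte markers 2 and 2 (Lep, 0.08), endothelial markers 3 and 3 (Tek, -0.24), and smooth muscle and pericyte markers 1 and 5 (Rgs5, -0.31). Each of these lists had 0 genes past the adjusted threshold. Smooth muscle and pericyte markers had mean levels of 7.0 to 7.44 in TOL and 7.30 to 7.71 in INT mice, and their part in the levels of the 7 genes was not tested.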

How the data were processed

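The authors scanned the 12 BeadChip arrays and read them with GenomeStudio (its version is not stated in the sources). The deposited signal table holds the average bead intensity of each probe on a linear scale, with no background correction or normalization, and a detection p-value from the authors' software for each probe and array. A deposited value table holds background-subtracted and quantile-normalized intensity values of the same arrays, made by a program that the sources do not name, and was used as an alternative.

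Signals were background corrected with the normal-exponential model of neqc (offset 16, background taken from the detection p-values), quantile normalized and put on the log2 scale with limma 3.58.1 in R 4.3.3. Log2 intensities of different probes were not read as relative amounts of RNA. They were compared for brightness and spread, and averaged over the genes of a list. Probes with a detection p under 0.05 on 6 or more arrays were fitted with lmFit and eBayes with an intensity trend, TOL minus INT, and adjusted by Benjamini-Hochberg over 15570 probes at 0.05. A gene is given by its brightest probe. Of the 45281 probes, 34885 have 1 symbol, 18 several and 10378 none, and only those with 1 were named. Group spreads were compared by exact permutation, and correlations by 100000 resamples, whose smallest raw p is 1e-05. A gene was called separated, and given no pooled correlation, where its largest gap with at least 3 mice on each side took 0.3 or more of its range, a rule chosen after seeing the data and applied to the brightest probe; the genes most like such a gene were found by rho over the 12 mice, but only rho within its sets is printed. Alternatives were the background correction, offset, scaling, deposited table, detection filter, array weights, the methods' t-test, a replicate block, the mean of a gene's probes, group-mean deviations and leaving out each mouse. The steps were tested on simulated data.

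The genes and lists were chosen with earlier results of these data known. Named are every probe of the 7 genes, the 3 genes most like each, the 4 genes of smallest p in a list (for cell types other than slow-twitch fibres only the first is printed) and Hspa1a and Dnajb1. The chip of most arrays is not stated in the sources, so the part of chip in these values could not be assessed. Single mice are the replicates, and their number limits the precision. The microRNA arrays, RT-qPCR, ELISA and Western blots of the study were not used here.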

Additional observations from a re-analysis of the deposited data

Results flagged for a closer look

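TOL mouse 5 lay far below the other TOL mice for Csrp3 with each of its 3 probes. The log2 intensity was 5.96, 5.76 and 4.55, against 8.72, 8.63 and 6.02 in the next lowest TOL mouse, and the gap took 0.747, 0.755 and 0.632 of the range of the 6 TOL mice, above the critical value of Dixon for 6 values (0.625). The 3 probes measure 1 gene in 1 RNA sample and are not independent of each other. Of 22 combinations of a label and a probe, these 3 passed, and chance gives about 1 in 20.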

How the results depend on the processing

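The count of 0 called probes among the 11 was unchanged in each of 22 alternatives. The replicate block by mouse number also gave 0 (2 passed without adjustment, where 10.1% of all tested probes did, Ankrd23 with a limma adjusted p of 0.218 and the second Mustn1 probe with a limma adjusted p of 0.490) and 124 called probes over the array. Of the 11 slow-twitch markers, 8 passed the unadjusted threshold under the block and 1 the adjusted one, Tpm3 (-0.69, limma adjusted p of 0.047, against 0.439 without the block); of the 11 HSF1 chaperones, 4 passed the unadjusted threshold and 0 the adjusted one. Deviations of same-numbered mice over all tested probes correlated between -0.01 and 0.15, and 0 of 6 TOL mice correlated best with its own number. With the block the standard error went from 0.53 to 0.27 for Mustn1, 0.36 to 0.16 for Abra and 0.20 to 0.11 for Ankrd23. It went from 0.50 to 0.33 for Errfi1 and 0.26 to 0.21 for Ankrd1, and stayed near 0.32 for Ankrd2 and 0.52 for Csrp3. Whether the numbers pair the mice was not settled by these values. Over all probes, the 129 calls became 77 with detection on all 12 arrays, 52 by the methods' t-test, and 78 to 152 when 1 mouse was left out (78 without INT mouse 7, 79 without TOL mouse 3). The 2 pairs that passed became 1 to 3, and the 2 genes with an unadjusted spread p of 0.05 or less (4.96% of all named genes) 0 to 3, both with 1 mouse left out and both 3 without TOL mouse 5; with deviations from the group mean, an alternative chosen after seeing the data, 2 remained in number.

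Signs turned for the following values, none of which had passed its test. Errfi1 was -0.10 with median scaling, -0.089 with array weights and -0.26 to 0.24 with 1 mouse left out. With 1 mouse left out, Abra was -0.33 to 0.23 and Csrp3 -0.74 to 0.028. The spread difference, TOL minus INT, was -0.029 to 0.30 for Abra, -0.00079 to 0.27 for Ankrd1, -0.32 to 0.32 for Csrp3 and -0.18 to 0.29 for Errfi1 (-0.0057 with median scaling). The rho of Ankrd1 with Csrp3 was -0.11 to 0.18, and that of Csrp3 with Abra -0.35 to 0.082, 0.028 with median scaling and 0.021 with deviations from the group means. With 6 mice a group and this spread, the intervals of Csrp3, Mustn1 and Errfi1 still allow differences of over 1 log2 unit. The dim second probe of Ankrd1 lies near background, where fold changes are understated.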
